A study of Mus musculus with 15 samples.

Results

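The window described here lies on mouse chromosome 11 and holds the genes Il9r, Snrnp25, Rhbdf1 and Mpg, the upstream neighbours of the α-globin genes. Its members were all DpnII fragments with a midpoint between 32080000 and 32136000 in mm9 in the tables of contacts made from the α-globin promoters. Counting fragments listed in either table, there were 139, from 32080071 to 32135979, of 2223 within 500 kb of the viewpoints and 778244 in all. They lay 46.4 to 102 kb upstream of the viewpoints. In the order of the GRCm38.p6 gene table, Il9r is the farthest from the α-globin genes and Mpg the nearest. Nprl3, which follows Mpg, overlaps its end in that table, so the last fragments of the window also belong to Nprl3.

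NG Capture-C was used, a method in which DNA cut with DpnII is joined to what lay beside it in the nucleus and the junctions that involve a chosen promoter are enriched with oligonucleotides. A read on a fragment is therefore a contact of that fragment with the α-globin promoters, and says nothing of its expression. The 15 libraries fell into 9 groups. Control, R1R2_KO (the elements R1 and R2 deleted) and R2R3_KO (R2 and R3 deleted) had 3 libraries each, which the labels call biological replicates. R1_KO, R2_KO, R3_KO, Rm_KO and R4_KO, each without a single element, and the E14 embryonic stem (ES) cell line had 1 library each. The 14 fetal liver libraries, control included, share the strain F1 C57Bl6 / CBA and the same culture. Liver cells from E12.5 embryos grew for 5 to 7 days with Epo, SCF and dexamethasone, Ter119-positive cells were then taken out with beads, and the rest matured for 18 hours with more Epo. The labels do not say whether 1 or both alleles lack an element, nor which embryos share a litter or day, and p-values cover only how these libraries spread. The ES library has the strain 129/Ola and no deletion, and differs from the others in strain as well as in cell type. Its label repeats the liver culture protocol, so the growth of the ES cells is not described.

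In red cell precursors the α-globin genes are switched on together with a cluster of upstream enhancer elements, most of which lie in introns of Nprl3. Genes and enhancers are held in a domain of frequent contacts, and sites bound by CTCF, a protein that stops the extrusion of chromatin loops, lie at its borders. The genes of the window stand upstream of the enhancers, towards the outer border. Il9r encodes the receptor for interleukin 9. Snrnp25 encodes a protein of the minor spliceosome. Rhbdf1 encodes an inactive rhomboid protein that guides the transport of growth factor signalling partners. Mpg encodes a DNA glycosylase that removes alkylated bases.

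The promoters are shown because the DpnII site, GATC, sets where a promoter can be seen in these data. Each runs from 250 bases before to 50 after the start of the gene, from RefSeq in GRCm38.p6, 5′ to 3′ on the strand of the gene, with GATC in capitals. Il9r lies on the minus strand at chr11:32200230-32200529. Snrnp25 (chr11:32205165-32205464) and Mpg (chr11:32226255-32226554) lie on the plus strand. Of the 4 genes, 3 matched an entry of the RefSeq promoter table, and Rhbdf1 is named only.
Il9r: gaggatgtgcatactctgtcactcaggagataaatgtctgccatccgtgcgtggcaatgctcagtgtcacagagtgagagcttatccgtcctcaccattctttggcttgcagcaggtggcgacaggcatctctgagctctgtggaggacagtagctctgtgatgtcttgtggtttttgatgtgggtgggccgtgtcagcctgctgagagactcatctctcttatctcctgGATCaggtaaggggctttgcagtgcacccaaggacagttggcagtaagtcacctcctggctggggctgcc
Snrnp25: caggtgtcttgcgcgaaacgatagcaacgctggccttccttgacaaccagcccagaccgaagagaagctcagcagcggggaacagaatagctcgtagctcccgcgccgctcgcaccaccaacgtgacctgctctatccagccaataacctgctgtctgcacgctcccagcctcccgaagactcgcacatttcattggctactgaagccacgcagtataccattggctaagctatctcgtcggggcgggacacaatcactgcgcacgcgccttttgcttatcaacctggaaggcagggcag
Mpg: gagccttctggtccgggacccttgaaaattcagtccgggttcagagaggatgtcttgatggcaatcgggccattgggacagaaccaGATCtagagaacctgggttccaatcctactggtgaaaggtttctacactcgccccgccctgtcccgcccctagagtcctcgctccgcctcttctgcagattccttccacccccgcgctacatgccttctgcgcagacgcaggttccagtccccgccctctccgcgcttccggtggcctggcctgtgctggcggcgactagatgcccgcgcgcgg

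Il9r and Mpg held 1 GATC each and Snrnp25 held 0, and 48.0% of the 32851 promoters in the table held at least 1. On both strands AGATAA, the core that GATA factors read, was found 2 times in Il9r and 0 times in the others, and in 11.2% of all promoters. CACCC, read by Krüppel-like factors, was found 2 times in Il9r, 0 times in Snrnp25 and 1 time in Mpg, and in 57.5% of all promoters. CCAAT, read by NF-Y, was found 0 times in Il9r, 3 times in Snrnp25 and 2 times in Mpg, and in 37.4% of all promoters. None of these matches overlapped another. A match is a string of letters and no measured site.

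Because the files are in mm9, promoters were placed on fragments by their GATC sites alone. The 19 promoters within 300 kb of Mpg held 8 GATC sites. At a single common shift 8 of these 8 fell on starts of listed fragments, and at the next best shift 3 did. All fragment positions below are in mm9. Values are reads per 100000 chromosome 11 reads that lay more than 2 kb from the viewpoints, called the chromosome scale, with the SD over 3 libraries.

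No fragment at the start of Il9r, Snrnp25 or Mpg passed the test in either double deletion. The Rhbdf1 start was not placed on a fragment. Of all 396 fragments tested within 500 kb, 3.79% were called higher and 23.2% lower in R1R2_KO, and 1.52% higher and 14.9% lower in R2R3_KO. With the enhancer cluster left out, 11 of 313 were higher and 28 lower in R1R2_KO. In R2R3_KO 3 of those 313 were higher and 10 lower. The Snrnp25 start lay on the 611 bp fragment from 32104923 to 32105533. This fragment had 76.0, 75.2 and 77.5 in control, 78.5, 70.6 and 80.1 in R1R2_KO and 75.2, 62.2 and 93.7 in R2R3_KO. The ranges overlap, and R2R3_KO holds both the lowest and the highest library. The fitted log2 changes against control were 0.01 (SE 0.23) and 0.00 (SE 0.24). The Mpg start lay on the 330 bp fragment from 32126343 to 32126672. It had 57.6, 62.7 and 62.3 in control, 68.4, 87.0 and 57.5 in R1R2_KO and 53.2, 84.8 and 74.5 in R2R3_KO. Both double deletions spread over and beyond the narrow control range. Both log2 changes were 0.21, with SE 0.25 (edgeR adjusted p = 0.628 in R1R2_KO and 0.663 in R2R3_KO). The Il9r start lay on the 477 bp fragment from 32099821 to 32100297. It had 107, 82.2 and 78.9 in control, 66.2, 63.5 and 73.9 in R1R2_KO and 44.0, 75.4 and 60.1 in R2R3_KO. All 6 libraries of the double deletions lay under the 3 controls. The log2 changes of -0.40 and -0.58 did not pass (edgeR adjusted p = 0.239 and 0.108). The neighbouring fragment from 32100298 to 32100753, which holds the rest of the Il9r promoter, had 64.1 ± 22.4 in control, 75.2 ± 14.3 in R1R2_KO and 44.8 ± 5.44 in R2R3_KO. It passed in no contrast. The rest of the Mpg promoter lay on the 176 bp fragment from 32126167 to 32126342, with 67.5 ± 7.90 in control, 85.7 ± 32.7 in R1R2_KO and 58.0 ± 4.90 in R2R3_KO.

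Depth set how finely the window could be read. The 9 replicated libraries held 41604 to 89136 reads on the chromosome scale and 3497 to 7709 in the window. The 6 unreplicated libraries were deeper, with 236920 to 536884 and 19384 to 42800. Of the 139 fragments, 127 had 90 or more reads over the 9 replicated libraries and could be tested, 12 had fewer, and of these 1 had 0 reads. In all 15 libraries 135 fragments had at least 1 read. Fragments were 15 to 1747 bp long (median 322 bp), and their control means ran from 0 to 128.8 (median 53.3). Longer fragments had more reads in control, with Spearman's rho of 0.56 over the 139 fragments as a description. For this reason the profile is given both per kb of listed fragment and per fragment.

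In control cells contacts with the α-globin promoters stepped up at the outer end of the window, on the side of Il9r. They stepped up again at its inner end, near the 3′ end of Nprl3, whose start lies farther inward on the minus strand. Just outside, the 5 kb from 32075000 to 32079999 had 25.5 ± 4.84 reads per kb on the chromosome scale. The next 5 kb, the outermost of the window, had 108 ± 13.3. Per kb that step was a log2 ratio of 2.10 ± 0.43 in control, and it was upwards in 15 of 15 libraries. Per fragment it was smaller, 0.61 ± 0.43, and again upwards in 15 of 15 libraries. The inner of these 2 bins is cut into 19 listed fragments over 4756 bp and the outer into 6 over 4222 bp, so the size of the step depends on how contacts are normalised. Density then dipped to 76.5 ± 7.52 and 55.7 ± 6.27 per kb in the next 2 bins, outward of the Il9r start, into which Il9r runs on the minus strand. It rose to 139 ± 20.8 from 32095000, in the bin that ends at the Il9r start. That rise was upwards in 15 of 15 libraries per kb (log2 1.31 ± 0.24 in control), and upwards in only 6 of 15 per fragment (0.20 in control).

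From Il9r to Mpg the control density stayed between 137 and 201 per kb. The highest of these, 201 ± 4.41, was the bin from 32115000 to 32119999, between Snrnp25 and Mpg, where Rhbdf1 lies in the gene order. The bin from 32130000 to 32134999, inward of the Mpg start, had 199 ± 3.38. Per fragment the control mean rose in the same direction with fewer reversals, from 27.1 at the outer end to 81.8 at the inner end. The 3 fragments with the most reads in control were all near Mpg. They were the 409 bp fragment from 32130360 to 32130768 (129 ± 18.8), the 614 bp fragment from 32131330 to 32131943 (121 ± 12.3) and the 1650 bp fragment from 32124427 to 32126076 (120 ± 4.03), which ends just before the Mpg promoter. At the inner border the density went from 199 to 432 ± 18.3 per kb in the bin from 32135000 to 32139999, of which only the first fragments belong to the window.

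**Figure D1:**
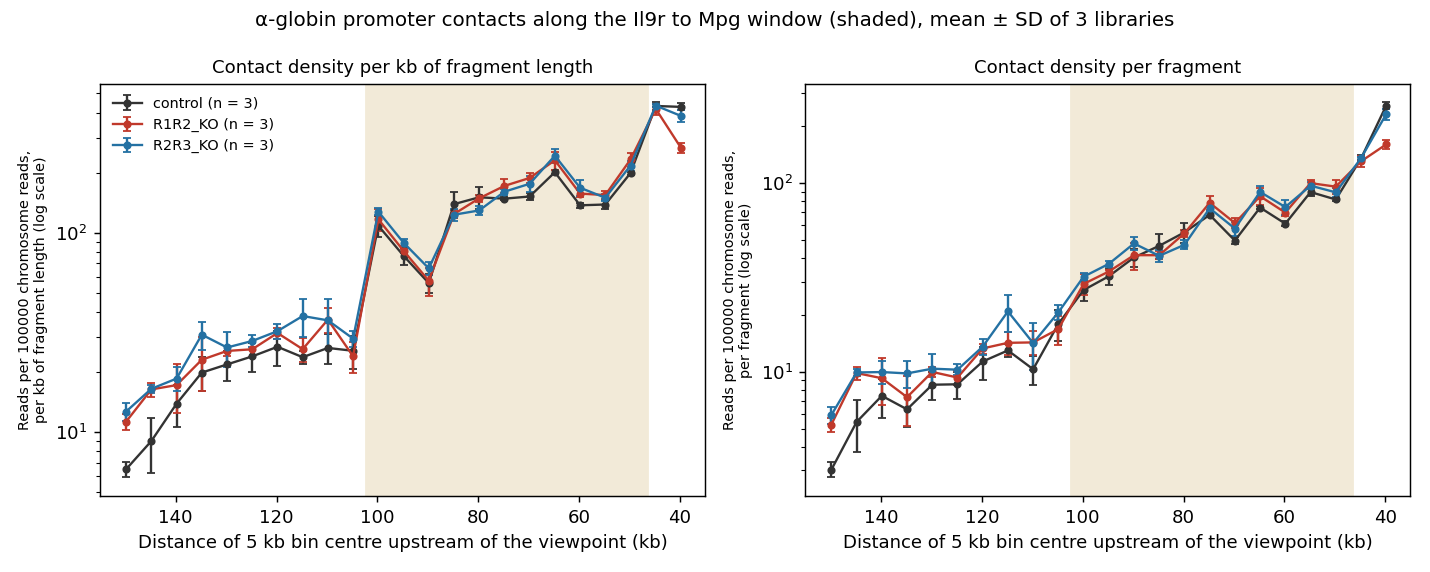
Contacts with the α-globin promoters in 5 kb bins by distance upstream of the viewpoint, per kb of fragment length (left) and per fragment (right), on log axes. Points are means and bars SDs of 3 libraries of control, R1R2_KO and R2R3_KO, and the window is shaded. Control steps from 25.5 to 108 per kb at the outer end and from 199 to 432 at the inner end, while the outer step per fragment is from 17.9 to 27.1.

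The outer edge remained in cells without R1 and R2 or without R2 and R3. Measured as the mean density of the 3 outermost bins of the window over that of the 3 bins beyond, it was 2.95, 3.496 and 3.03-fold in control. It was 2.93, 2.72 and 2.98-fold in R1R2_KO and 2.33, 2.60 and 3.27-fold in R2R3_KO. The groups overlap, and the lowest value was an R2R3_KO library. The log2 differences from control were -0.13 (SE 0.09, p = 0.2) in R1R2_KO and -0.22 (SE 0.16, p = 0.3) in R2R3_KO by exact two-sided permutation tests, whose smallest p with 3 against 3 is 0.1. With the bins shifted by 2.5 kb the differences were -0.27 and -0.35, and neither deletion overlapped control (exact permutation p = 0.1 for each).

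The inner step was shallower in both double deletions. From the bin at 32130000, inward of the Mpg start, to the bin beyond it, contacts rose 2.12, 2.23 and 2.16-fold in the 3 controls. They rose 1.80, 1.69 and 1.92-fold in R1R2_KO and 1.90, 2.10 and 2.01-fold in R2R3_KO. Neither group overlapped control. The log2 differences were -0.27 (SE 0.06) and -0.12 (SE 0.05), each with the smallest p the exact two-sided permutation test allows, 0.1. The outer of these 2 bins was higher in the double deletions, at 233 ± 19.1 per kb in R1R2_KO and 217 ± 12.3 in R2R3_KO against 199 ± 3.38 in control. The inner bin was at 418 ± 26.6 and 434 ± 7.06 against 432 ± 18.3, and overlapped. This measure was chosen after the profile had been seen.

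Between the 2 steps contacts rose towards the enhancers in the 9 replicated libraries. The slope over the 11 bins was 0.234 ± 0.031 log2 units per 10 kb in control, 0.277 ± 0.015 in R1R2_KO and 0.241 ± 0.016 in R2R3_KO. Exact two-sided permutation tests against control gave p = 0.2 and p = 0.7. R2R3_KO lay below R1R2_KO without overlap (exact permutation p = 0.1). The 3 bins nearest the enhancers were 1.97, 1.85 and 2.15 times as dense as the 3 farthest in control, 2.25, 2.20 and 1.99 times in R1R2_KO and 1.97, 1.78 and 1.93 times in R2R3_KO. The deletions overlap control on this ratio. With the bins shifted by 2.5 kb R1R2_KO lay above control without overlap, by 0.22 on the log2 scale for this ratio and by 0.062 for the slope (exact permutation p = 0.1 for each).

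More of the window's contacts lay on the side of the enhancers in both double deletions. The share of window reads from the window's midpoint, 32108000, inwards was 59.7%, 57.6% and 60.8% in control (59.4% ± 1.66). It was 63.2%, 62.7% and 61.9% in R1R2_KO (62.6% ± 0.68) and 62.2%, 61.2% and 62.6% in R2R3_KO (62.0% ± 0.69). All 6 libraries of the deletions lay above the 3 controls. The differences were 3.22 and 2.64 percentage points, with SE 1.0 each (exact two-sided permutation p = 0.1 for each, the smallest possible). The double deletions overlapped each other, with a difference of -0.58 points (exact permutation p = 0.4). Both contrasts use the same 3 control libraries.

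Cut at the promoter fragments, the window gave 4 segments, and 2 of them passed in at least 1 double deletion. The segment of Snrnp25 and Rhbdf1, 53 fragments from 32104923 to 32126342, had 3403, 3403 and 3300 reads per 100000 in control. It had 3980, 3720 and 4188 in R1R2_KO and 4048, 3728 and 3988 in R2R3_KO. All 6 libraries of the deletions were above the controls. The segment rose in both, with log2 changes of 0.24 and 0.22 (SE 0.07 each, edgeR adjusted p = 0.00173 and 0.00949 in the order R1R2_KO, R2R3_KO). Both changes turned below 0 on the flank scale, described below, and with TMM factors (-0.12 and -0.22 in R1R2_KO, -0.01 and -0.03 in R2R3_KO). TMM factors, from edgeR, rescale the chromosome reads of each library and were estimated anew from the tested features of each fit. In R2R3_KO the call was lost on the whole-genome scale (0.21, adjusted p = 0.090) and without R2R3_KO library 1 (0.19, adjusted p = 0.062).

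The Mpg side, 20 fragments from 32126343 to 32135979, had 1677, 1740 and 1689 in control. It had 2058, 2022 and 1766 in R1R2_KO and 1856, 1753 and 1832 in R2R3_KO. Both deletions lay above control, R1R2_KO library 3 and R2R3_KO library 2 by little. It rose in R1R2_KO (log2 0.20, SE 0.07, edgeR adjusted p = 0.00972) and gave 0.09 in R2R3_KO (adjusted p = 0.335), with signs that turn under the flank (-0.16 and -0.13) and TMM scales (-0.27 and -0.16). Without R1R2_KO library 1 the R1R2_KO value was 0.15 (adjusted p = 0.082).

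The Il9r side and the stretch from Il9r to Snrnp25 passed in neither deletion on the chromosome scale. The Il9r side, 53 fragments from 32080071 to 32100297, had 1853, 2145 and 1768 in control, a spread that held all 3 R1R2_KO libraries (1877 to 1939) and all 3 R2R3_KO libraries (2011 to 2032). The log2 changes were -0.02 and 0.07. In R1R2_KO the Il9r side passed as lower on the flank scale (-0.37) and with TMM factors (-0.47), and as higher on the local scale (0.25). The 13 fragments from 32100298 to 32104922 had 678 ± 85.9 in control, 690 ± 36.6 in R1R2_KO and 599 ± 39.6 in R2R3_KO, with log2 changes of 0.03 and -0.17. Without control library 3 the latter was -0.28 and passed (edgeR adjusted p = 0.039). The signs of these 4 changes are not stable across the scales.

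The background of these calls was high. In the same fit of 180 segments and bins within 500 kb, 60.6% were called higher in R1R2_KO and 19.4% in R2R3_KO. Against that, 2 of 4 segments were higher in R1R2_KO and 1 of 4 in R2R3_KO. On the local scale 4 and 3 segments were called higher, where 152 and 83 of the 180 features were. On the flank scale 2 and 1 segments were called lower and 0 higher, where 20 and 15 of the 180 were lower and 35 and 6 higher. With TMM factors 3 and 1 segments were called lower and 0 higher, where 23 and 15 of the 180 were lower and 18 and 5 higher. Between the double deletions 0 of 4 segments passed in edgeR, where 10.6% of all features did; 1 had an unadjusted p under 0.05, and DESeq2 and limma also called 0.

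**Figure D2:**
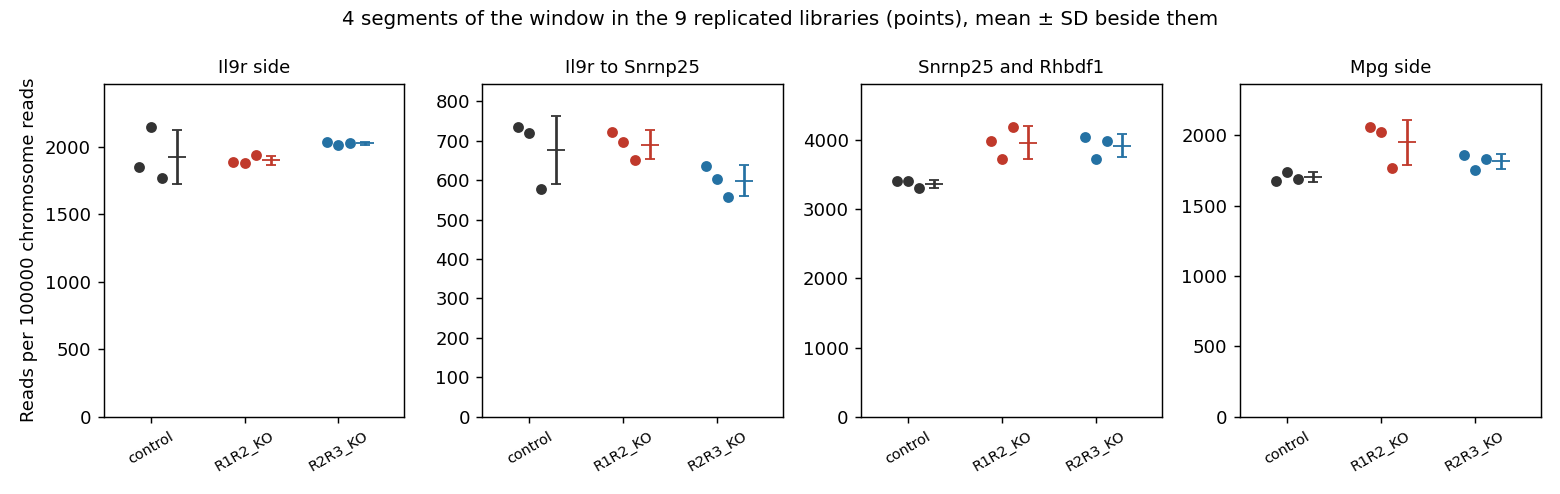
Reads per 100000 chromosome reads in the 4 segments of the window, from the Il9r side (left) to the Mpg side (right), for each library of control, R1R2_KO and R2R3_KO, with mean ± SD beside the points. In the Snrnp25 and Rhbdf1 segment the 6 deletion libraries, 3720 to 4188, lie above the controls, 3300 to 3403; on the Il9r side the control libraries span those of both deletions.

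In 5 kb bins, the bins that rose lay on the inner 6 of the 11, which run from the Snrnp25 start to inward of the Mpg start. R1R2_KO had 5 of 11 bins higher and 0 lower, where 59.9% of all 187 bins were called higher and 5.35% lower. R2R3_KO had 3 of 11 higher and 0 lower, where 21.9% and 4.81% of all bins were. The largest change in R1R2_KO was the bin from 32110000 to 32114999, with 152 ± 6.0 per kb in control and 188 ± 10.9 in R1R2_KO (log2 0.30, SE 0.08, edgeR adjusted p = 0.00118). The largest called in R2R3_KO was the bin from 32120000 to 32124999, with 137 ± 3.84 in control and 168 ± 15.4 in R2R3_KO (0.29, SE 0.09, adjusted p = 0.0113). The bin from 32115000, the densest of the window in control, passed in both (0.21 and 0.28, adjusted p = 0.0154 and 0.00587). The other called bins had 0.20 to 0.23 in R1R2_KO and 0.21 in R2R3_KO.

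The bins from 32095000 and 32100000, on either side of the Il9r start, gave -0.16 and -0.01 in R1R2_KO and -0.18 and -0.22 in R2R3_KO, and did not pass. The 3 outermost bins gave 0.06 to 0.09 in R1R2_KO and 0.22 to 0.25 in R2R3_KO, and did not pass either. The bin from 32105000, which begins with the Snrnp25 start, gave 0.21 (adjusted p = 0.0212) in R1R2_KO and 0.12 in R2R3_KO (edgeR adjusted p = 0.30). Between the double deletions 0 of 11 bins passed in edgeR, where 10.7% of all bins did; 1 had an unadjusted p under 0.05, and DESeq2 and limma called 0.

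The median log2 change of its 11 bins was 0.15 in R1R2_KO and 0.21 in R2R3_KO, and that of all 187 bins 0.77 and 0.35. Under the flank scale and with TMM factors, 5 of 5 bins called in R1R2_KO and 1 of 3 called in R2R3_KO turned below 0, and the bins called in the window were lower instead (4 and 6 in R1R2_KO, 2 and 2 in R2R3_KO). In the same order, 22 and 24 of all 187 bins were lower in R1R2_KO, and 33 and 23 higher. In R2R3_KO 17 and 17 of all bins were lower, and 6 and 5 higher. The counts of the window also rest on single libraries. In R1R2_KO they were 2 without control library 3 or without R1R2_KO library 1, and 3 without R1R2_KO library 3. In that order 98 of 188, 88 of 178 and 104 of 187 bins in all were called. In R2R3_KO the window's counts were 1 without R2R3_KO library 1 or library 3, where 38 and 40 of all 188 bins were called. They were 5 (4 higher and 1 lower) without R1R2_KO library 1, which enters that fit through the shared spread. There 48 of all 178 bins were called. Without control library 1 R1R2_KO had 4 bins higher and 1 lower, where 101 and 11 of all 187 were. Without control library 3 R2R3_KO had 2 higher and 1 lower, where 30 and 9 of all 188 were.

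**Figure D3:**
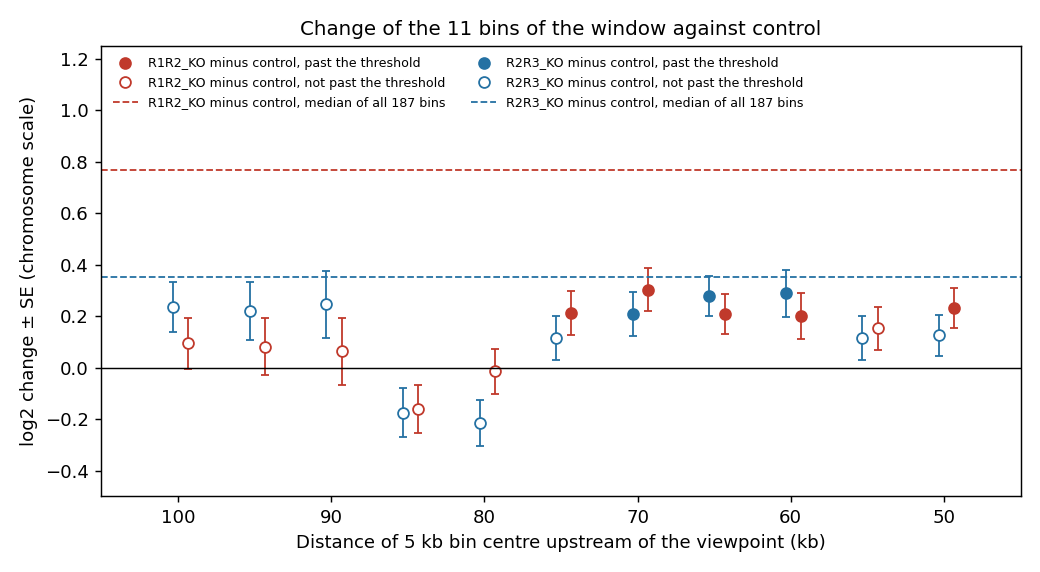
Log2 change ± SE against control on the chromosome scale for the 11 bins of the window, by distance upstream of the viewpoint, in R1R2_KO (red) and R2R3_KO (blue). Filled points passed an adjusted p of 0.05 in edgeR, and dashed lines are the medians of all 187 bins, 0.77 and 0.35. The called bins lie on the inner side, and every point lies under the median line of its own contrast.

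In R1R2_KO 3 of the 127 tested fragments were higher and 0 lower, against 3.79% and 23.2% of all 396 tested fragments. With the enhancer cluster left out, 11 of 313 fragments were higher, 3 of them in the window, and 28 lower. The 810 bp fragment from 32122692 to 32123501, upstream of Mpg, had 64.2, 82.2 and 56.8 in control and 93.1, 115 and 119 in R1R2_KO. The groups do not overlap, and R2R3_KO, with 75.2, 75.4 and 67.3, lay inside the control range. Its log2 change in R1R2_KO was 0.67 (SE 0.22, edgeR adjusted p = 0.0183). The 111 bp fragment from 32109962 to 32110072 had 34.1, 36.2 and 20.8 in control and 56.1, 44.7 and 63.7 in R1R2_KO (0.86, SE 0.30, adjusted p = 0.0249). The 300 bp fragment from 32112663 to 32112962 had 52.4, 44.6 and 23.5 in control and 68.4, 61.1 and 80.1 in R1R2_KO (0.79, SE 0.27, adjusted p = 0.0220). In both, control library 3 was the lowest of the 9. Without that library 1 of the window's fragments passed, and without R1R2_KO library 3 0 did, where 85 of 404 and 92 of 400 in all did. Without R1R2_KO library 1 6 did (5 higher and 1 lower) and without control library 1 10 did (9 higher and 1 lower). Of all fragments 91 of 371 and 120 of 394 were called in these 2 fits.

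In R2R3_KO 5 fragments were higher and 0 lower, against 1.52% and 14.9% of all tested fragments. With the enhancer cluster left out, 3 of 313 fragments were higher, all in the window, and 10 lower. Of the 5 fragments, 1 lay near the outer end. The 606 bp fragment from 32081563 to 32082168 had 36.7, 29.3 and 34.6 in control and 64.2, 62.2 and 74.5 in R2R3_KO (log2 0.99, SE 0.29, edgeR adjusted p = 0.00963), with R1R2_KO between them at 37.0, 44.7 and 53.4. The other 4 lay between 32113266 and 32118743. The 117 bp fragment from 32117670 to 32117786 had 48.5, 23.7 and 42.9 in control and 62.4, 82.9 and 74.5 in R2R3_KO (0.92, SE 0.28, adjusted p = 0.0168). The largest change, 1.31 (SE 0.42, adjusted p = 0.0209), was on a 16 bp fragment with 9.17, 20.9 and 18.0 in control and 33.0, 37.7 and 50.5 in R2R3_KO. Its 733 bp neighbour, from 32113282 to 32114014, had 0.66 (adjusted p = 0.0442). The 675 bp fragment from 32118069 to 32118743 had 0.61 (adjusted p = 0.0468). The count was 3 without control library 2, control library 3 or R2R3_KO library 2, and 0 without R2R3_KO library 3. In that order 55 of 398, 49 of 404, 38 of 396 and 39 of 410 fragments in all were called. Without R2R3_KO library 1 the window's count was 4, with 3 higher and 1 lower, where 50 of 399 in all were called.

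The double deletions differed from each other on 3 fragments of the window, where 10.1% of all tested fragments did. The 470 bp fragment from 32120355 to 32120824 was higher in R2R3_KO, with 130, 113 and 123 against 72.9, 58.8 and 69.8 in R1R2_KO (log2 0.84, SE 0.23, edgeR adjusted p = 0.00628). The control libraries lay between, at 72.1, 100.3 and 87.2, and overlapped R1R2_KO. At the inner end 2 adjoining fragments were lower in R2R3_KO. That from 32134726 to 32135188 had 136, 113 and 142 in R1R2_KO, 111, 94.7 and 88.6 in control and 88.0, 66.0 and 50.5 in R2R3_KO (-0.92, SE 0.23, adjusted p = 0.00313). Its neighbour up to 32135765 also gave -0.92 (SE 0.30, adjusted p = 0.0340), with groups that overlap: 128, 113 and 65.7 in R1R2_KO and 45.9, 37.7 and 86.5 in R2R3_KO. The count was 6 without R1R2_KO library 1 and 5 without R1R2_KO library 3, where 40 of 371 and 40 of 400 fragments in all were called.

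On the chromosome scale most of the 127 tested fragments had a change above 0 against control, and on the flank scale most had a change below 0. On the chromosome scale in R1R2_KO 83 were above 0 and 44 below (median 0.13), and in R2R3_KO 84 and 43 (median 0.11), while the medians of all 396 tested fragments were -0.06 and -0.03. With the enhancer cluster left out, the medians of the 313 fragments that remained were 0.06 and 0.04. On the flank scale 31 of the 127 were above 0 in R1R2_KO (median -0.23) and 47 in R2R3_KO (median -0.11). Between the double deletions 62 were above 0 and 65 below on the chromosome scale. The calls moved with the scale as well. On the flank scale R1R2_KO had 9 fragments lower and 0 higher, where 143 of all 396 were called, only 2 of them higher. R2R3_KO had 6 lower and 2 higher there, where 108 of all 396 were called, only 3 of them higher. In the same order, TMM factors over fragments gave 15 and 7 higher and 0 lower. Of all 396 fragments, 31 and 11 were higher with these factors, and 61 and 41 lower. With no filter on low counts 0 fragments passed in R1R2_KO, and with DESeq2 1 did.

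Whether the window as a whole gained or lost contacts depended on what it was set against. On the chromosome scale it held 7667, 8008 and 7336 reads per 100000 in control, 8649, 8315 and 8544 in R1R2_KO and 8573, 8094 and 8405 in R2R3_KO. Neither double deletion overlapped control. With reads up to 5 kb from the viewpoints left out, in place of 2 kb, the log2 differences were 0.08 in each, and R2R3_KO overlapped control (exact permutation p = 0.2). On the whole-genome scale R2R3_KO also overlapped control, at 0.12 (exact permutation p = 0.2). On the local scale, which divides by reads within 500 kb, the gaps were wider: 11021, 10892 and 9983 in control, 14636, 13718 and 14049 in R1R2_KO and 13517, 12981 and 13435 in R2R3_KO. The log2 differences were 0.41 and 0.33 there, and 0.15 and 0.12 on the chromosome scale. The flank scale divides by the same 500 kb without the enhancers and α-globin genes (32136000 to 32205000), where contacts differ between these groups: the bin from 32140000, for example, had 428 ± 17.1 per kb in control and 266 in R1R2_KO. On it the window held 37486, 38034 and 37687 in control, 32629, 32994 and 32735 in R1R2_KO and 36160, 34349 and 35156 in R2R3_KO. The order was turned, without overlap, with differences of -0.20 and -0.10. Each of these 6 differences had the smallest p of the exact two-sided permutation test, 0.1. Across scales the median of all 187 bins moved as well, to 1.03 and 0.55 on the local scale, 0.41 and 0.13 on the flank scale and 0.36 and 0.09 with TMM factors. The median of the window's 11 bins lay below it on each: 0.42 and 0.41 on the local scale, -0.20 and -0.01 on the flank scale and -0.26 and -0.05 with TMM factors.

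**Figure D4:**
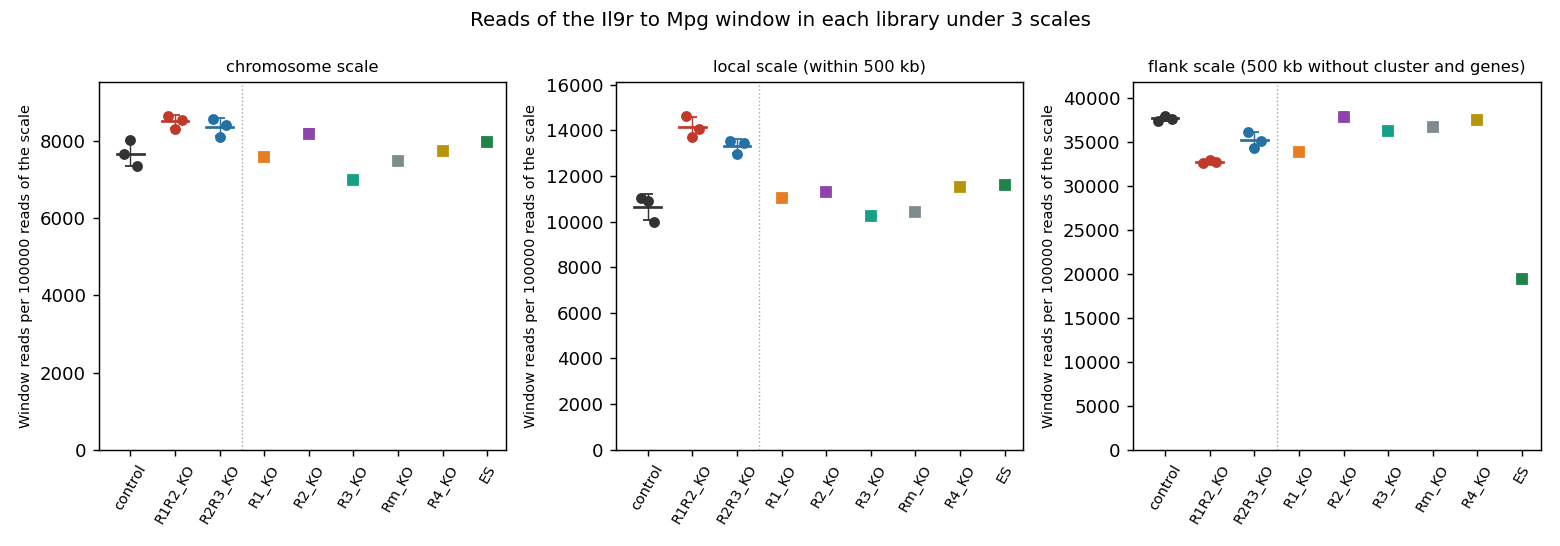
Window reads per 100000 reads of the chromosome scale (left), the local scale of 500 kb (middle) and the flank scale, which leaves out the enhancers and α-globin genes (right). Circles are the 9 replicated libraries with mean ± SD, squares the 6 unreplicated ones, which come from another table. Both double deletions lie above control on the left and middle panels and below it on the right, where ES cells, at 19493, lie far under all other libraries.

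A ratio that needs no library scale set the window against the same distances on the other side of the α-globin genes. The matched downstream window, from 32244879 to 32299897, held 113 fragments. The upstream window had 11.8, 10.99 and 12.2 times its reads in control, 7.20, 8.50 and 7.35 times in R1R2_KO and 10.2, 9.67 and 9.33 times in R2R3_KO. The 3 groups do not overlap, with R1R2_KO lowest. The log2 differences were -0.61 (SE 0.09) for R1R2_KO and -0.26 (SE 0.06) for R2R3_KO against control, and 0.34 (SE 0.08) between them, each with an exact two-sided permutation p of 0.1. The downstream window itself held 659 ± 64.5 in control, 1114 ± 119 in R1R2_KO and 859 ± 36.4 in R2R3_KO on the chromosome scale. On that scale its log2 differences from control, 0.76 and 0.39, were larger than those of the window of the 4 genes, given above.

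At the other captured promoters, windows at the same distances did not move in a common way. On the chromosome scale of each viewpoint, the log2 changes in R1R2_KO were -0.45 and -0.15 on the sides of the β-globin genes and 0.04 and -0.10 on those of Slc25a37. In R2R3_KO they were 0.16 and -0.20 at β-globin and 0.43 and 0.09 at Slc25a37. The 0.43 was larger than any change of the Il9r to Mpg window on the chromosome scale and its groups did not overlap (exact permutation p = 0.1).

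The single deletions gave similar profiles, with no replicate and no control in their table. Their window totals on the chromosome scale were 7588 in R1_KO, 8182 in R2_KO, 6986 in R3_KO, 7473 in Rm_KO and 7731 in R4_KO. The outer edge was 3.37 to 3.79-fold in the 5 libraries, lowest in R1_KO and highest in Rm_KO. The slope ran from 0.178 log2 units per 10 kb in R4_KO to 0.254 in R1_KO. The share of window reads on the enhancer side was 62.3% in R1_KO (exact 95% interval 61.8 to 62.9%), 60.7% in R2_KO, 60.6% in R3_KO, 58.7% in Rm_KO and 57.5% in R4_KO (56.9 to 58.1%). The intervals cover counting error only and the reads carry no molecular identifiers. The R1_KO interval lies above those of the other 4.

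R1_KO also stood at the end of the range on 3 other measures. Its inner step was the smallest, 2.01-fold against 2.15 to 2.41-fold. Its window total on the flank scale was the lowest, 33961 against 36319 to 37921. Its window held 8.91 times the reads of the matched downstream window, against 11.9 to 13.9 times in the other 4. Its downstream window held 852 reads per 100000, against 585 to 626. With 1 library each, none of these orders has a replicate check.

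In ES cells, where the α-globin genes are silent in textbook accounts, the profile was flatter and the outer edge lower. The sign of the slope across the window turned with the normalisation: it was -0.034 log2 units per 10 kb in contacts per kb and 0.034 in contacts per fragment. The 3 inner bins were 0.866 times as dense as the 3 outer ones per kb and 1.06 times per fragment, against 1.70 to 2.05 and 2.08 to 2.51 times in the single deletions. The enhancer side held 49.8% of the window reads (exact 95% interval 49.4 to 50.3%). The Il9r side held 36.3% of them, against 24.2 to 27.7% in the single deletions, and the Mpg side 15.5% against 20.0 to 22.8%. These shares need no scale.

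The edge was still there in ES cells, at 2.02-fold per kb and 1.60-fold per fragment, against 3.37 to 3.79-fold and 2.68 to 3.01-fold. Both sides of it were higher on the chromosome scale. The outermost bin of the window had 214 reads per kb in ES cells and 92.5 to 124 in the single deletions. The bin beyond had 55.5 and 15.2 to 19.7. At Il9r the densities met, with 145 per kb from 32095000 in ES cells and 121 to 167 in the single deletions. Inward of the Mpg start the order was turned, with 143 per kb from 32130000 against 164 to 210. The inner step was 1.64-fold against 2.01 to 2.41-fold.

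By segment, ES cells had 2897 reads per 100000 on the Il9r side against 1740 to 2141 in the single deletions. From Il9r to Snrnp25 they had 622, inside the range of 537 to 698. The Snrnp25 and Rhbdf1 segment had 3214 against 3230 to 3564, and the Mpg side 1238 against 1479 to 1858. Of the 11 bins, 4 lay above all 5 single deletions and 3 below, where 80.3% of the 203 bins within 500 kb lay above and 16.3% below. The ES total of the window, 7972, lay inside the range of the single deletions on the chromosome scale, at 11595 slightly above their 10250 to 11518 on the local scale and at 19493 far below their 33961 to 37921 on the flank scale. The upstream window held 2.41 times the reads of the matched downstream window in ES cells. The ES library differs from the single deletions in strain, cell type, depth and the absence of a deletion at once, and their parts in these values cannot be told apart.

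**Figure D5:**
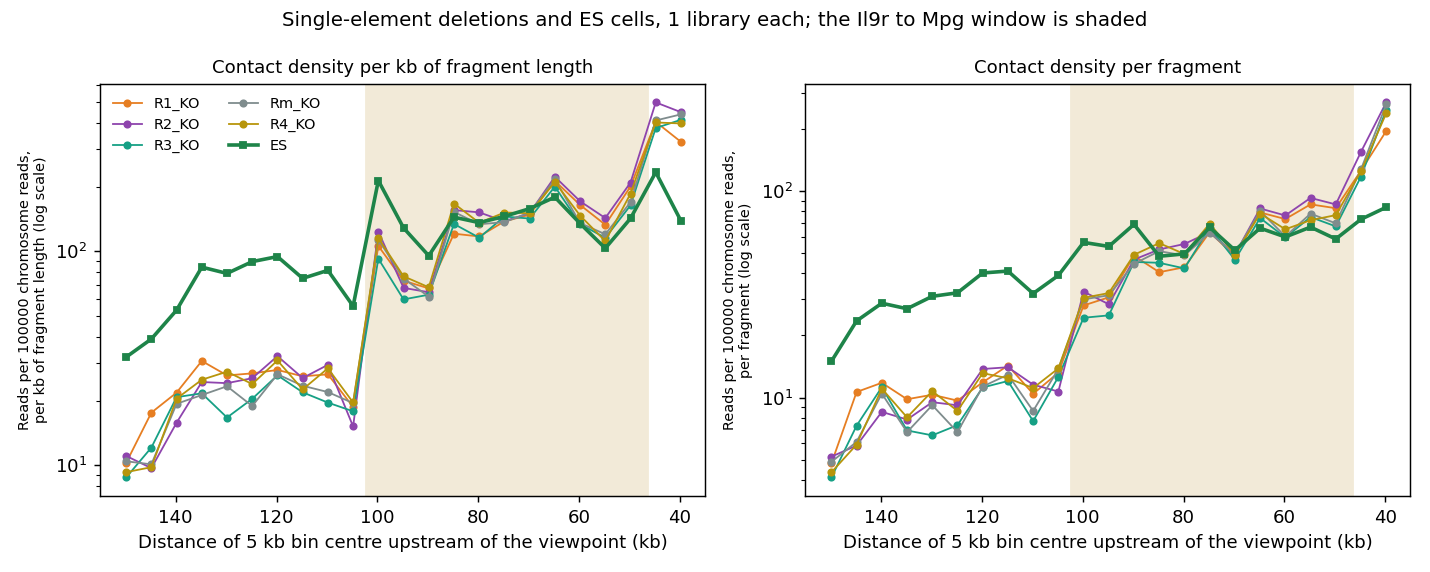
Contacts in 5 kb bins by distance upstream of the viewpoint for the 5 single deletions and ES cells (thick green line), 1 library each with no error bars, per kb of fragment length (left) and per fragment (right), on log axes, with the window shaded. ES cells lie above the single deletions on the outer side of the window and at its outer end (214 against 92.5 to 124 per kb), meet them at Il9r and lie below them at the Mpg end (143 against 164 to 210) and in the bins inward of it.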

How the data were processed

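The authors deposited raw read counts per DpnII fragment in mm9, not scaled to depth; the submitters' processing notes name the tools Trim Galore and Bowtie without a version. The authors' control, R1R2_KO and R2R3_KO columns share 1 table, and the single deletions and ES cells another, which holds no control. A further 7 columns matched no sample and were not used. The counting of reads shared by the near-identical α-globin copies is not described in these sources.

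Viewpoints were the gaps of at least 1500 bp at the α-globin promoters (32182317 to 32184781 and 32194990 to 32197598). Counts of fragments, of 5 kb bins, and of 4 segments with the bins outside the window were each fitted within 500 kb with edgeR 4.0.16 in R 4.3.3 (quasi-likelihood, all 9 replicated libraries, at least 90 reads over them, Benjamini-Hochberg at 0.05 within a contrast). These p-values share spread across features and draw it from all 9 libraries, while each contrast still compares 3 against 3 libraries. The fragment fit was tested on simulated data for R1R2_KO against control. Library values were compared with exact two-sided permutation tests (scipy 1.17.1, Python 3.11.15). DESeq2 1.42.0 and limma 3.58.1 were alternatives.

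Named items were the 4 genes, every bin, the 3 fragments with the most control reads, the up to 5 highest and 5 lowest called fragments of each contrast, and promoter fragments. The rule of placing each promoter alone could not be applied, since each held at most 1 GATC, so promoters were matched together. The window, its members and the measures were chosen with earlier results of these data known. Replicates differed by more than sampling noise, with chi-square over degrees of freedom of 1.46 to 2.77 in 9 pairs, so each counted once. No genome of mm9 was used here, and GRCm38.p6 tables gave names, gene order and promoter sequences only.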

Additional observations from a re-analysis of the deposited data

How the results depend on the processing

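The scale decided direction more than any other choice. On the flank scale the window total gave -0.20 in R1R2_KO, -0.10 in R2R3_KO and 0.10 between the double deletions. In the order flank scale, TMM factors, the Snrnp25 and Rhbdf1 segment gave -0.12 and -0.22 in R1R2_KO and -0.0052 and -0.029 in R2R3_KO, and the Mpg side -0.16 and -0.27 in R1R2_KO and -0.13 and -0.16 in R2R3_KO. The Il9r side gave -0.15 and -0.17 in R2R3_KO, and Il9r to Snrnp25 -0.32 and -0.43 in R1R2_KO. On the local scale Il9r to Snrnp25 gave 0.024 in R2R3_KO and the Il9r side 0.25 in R1R2_KO, where the whole-genome scale gave 0.079. On the whole-genome scale the Snrnp25 and Rhbdf1 segment in R2R3_KO, at 0.21, was no longer called. The R1R2_KO bins gave, in the order flank scale, TMM factors, -0.14 and -0.20 from 32105000, -0.049 and -0.10 from 32110000, -0.15 and -0.21 from 32115000, -0.16 and -0.21 from 32120000 and -0.12 and -0.18 from 32130000, and the R2R3_KO bin from 32110000 gave -0.015 and -0.048. Called bins of the window in R1R2_KO numbered 10 on the local scale, 4 (lower) on the flank scale and 6 (lower) with TMM factors. Of all 187 bins, 159 were higher on the local scale, 22 lower on the flank scale and 24 lower with TMM factors. In R2R3_KO called bins of the window numbered 9, 2 (lower) and 2 (lower), and 5 among 2 kb bins. Of all 187 bins, 89 were higher, 17 lower and 17 lower there, and 50 of 296 bins of 2 kb were called. Between the double deletions 1 bin of the window passed on the whole-genome scale, on the local scale and among 2 kb bins. Of all bins, 38 of 187, 35 of 187 and 17 of 296 did. Called fragments of the window in R1R2_KO numbered 8 on the whole-genome, 27 on the local and 9 on the flank scale, 15 with TMM factors, 1 with DESeq2 and 0 with no filter on low counts. In that order 82, 97, 143, 92 and 94 of all 396 were called, and 97 of 2185 with no filter. In R2R3_KO fragments of the window numbered 3, 12 and 8 on those scales, 3 with DESeq2, 2 with no filter and 3 with the enhancer cluster left out of the adjustment. In that order 53, 49, 108 and 61 of all 396 were called, then 50 of 2185 and 13 of 313. Between the double deletions fragments of the window numbered 5 on each of these 3 scales and with TMM factors, where 33, 42, 69 and 42 of all 396 were called. Segments called there numbered 1 on the whole-genome scale, 2 on the local scale and 1 with TMM factors, where 39, 36 and 23 of 180 features were called. The slope in R2R3_KO against control was -0.0071 with 2 kb bins, and the ratio of near to far bins 0.12 with the shifted grid. On the local scale the window on the higher side of β-globin gave 0.020, 0.044 and 0.024 in the 3 contrasts. The ES total against the mean single deletion was 0.07 on the chromosome scale, 0.56 on the whole-genome scale, 0.089 on the local scale and -0.91 on the flank scale. The cause of these shifts was not tested.

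Leaving out 1 replicated library at a time gave 2 to 5 called bins of the window in R1R2_KO and 1 to 5 in R2R3_KO. Called fragments of the window were 0 to 10, 0 to 6 and 2 to 6 in R1R2_KO, in R2R3_KO and between them. Over the same fits, 88 to 122 and 26 to 48 of all bins were called, with 178 to 189 tested. Of all fragments 85 to 120, 38 to 70 and 31 to 51 were called, with 371 to 410 tested. The Snrnp25 and Rhbdf1 segment in R2R3_KO ran from 0.19 to 0.25 and the Mpg side in R1R2_KO from 0.15 to 0.26. Around 0 lay the slope in R2R3_KO (-0.0082 to 0.023), the outer edge between the double deletions (-0.22 to 0.021), the lower Slc25a37 window in R1R2_KO (-0.0097 to 0.067), the Il9r side in R1R2_KO (-0.072 to 0.070) and Il9r to Snrnp25 in R1R2_KO (-0.070 to 0.094). Of 918 alternative values in all, 739 kept their direction and their side of the threshold, or for a count stayed within 1.5 times. Values from exact permutation tests could not cross the threshold of 0.05, since their p cannot go below 0.1. For these values only the direction could change.

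Libraries with the same replicate number had deviations correlated at -0.047 to 0.227. Libraries with different numbers were not compared, so these values cannot show whether the number pairs the libraries. With the number as a replicate block, called bins of the window were 5 in R1R2_KO, 2 in R2R3_KO and 0 between them, and called fragments 4, 5 and 3. In the same order 114, 45 and 20 of all 187 bins and 110, 64 and 46 of all 396 fragments were called. The share of reads on the enhancer side uses no bins, so its bin grids gave no value. The exact tests cannot go below 0.1, and fragments with few reads were not testable at this depth.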
